A study of Mus musculus with 13 samples.

Results

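The genes of glucose uptake, glycolysis, lactate handling and glycogen metabolism were followed in nuclei from mouse heart ventricles. The set was a list of 32 genes taken by symbol from a table of 55536 genes. All 32 were found, and all were among the 16125 genes that passed the filter on low counts. They were read in 5 steps: transport into the cell (2 genes), upper glycolysis with its regulators (10), lower glycolysis (8), lactate (3) and glycogen (9). The mice were C57BL/6J, an inbred strain, of both sexes. They were injected in the peritoneum with a virus of AAV serotype 6 at postnatal day 1, and their hearts were sampled at postnatal day 56. The virus carried no insert in the control groups and human PGR, the progesterone receptor, a steroid-activated transcription factor, in the others. Females make up Con_F with the control vector (4 libraries) and PGR_F with the PGR vector (3 libraries, numbers 1, 2 and 4), and males make up Con_M (3) and PGR_M (3). All mice received virus, and each library pooled 3 to 6 ventricles, so differences between single hearts were not measured. The labels give neither the promoter of the insert nor its dose, and the human transcript was not measured here.

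Heart muscle takes up glucose through membrane carriers, traps it as a hexose phosphate, and either stores it as glycogen or splits it to pyruvate. Phosphofructokinase is the main control point of the upper steps in textbooks, and the lower steps yield ATP and NADH. The adult heart burns mostly fatty acids, and it both consumes and makes lactate. Several steps have paralogous enzymes, of which one is typical of striated muscle and another of many tissues.

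Nuclei had been sorted for Pcm1, which marks cardiomyocyte nuclei, and total counts were 31.8 to 86.3 M per library. The 8 cardiomyocyte markers summed to 76276 to 95463 counts per M (CPM) in the 13 libraries. The 9 endothelial markers summed to 28.3 to 64.2 CPM and the 3 lymphocyte markers to at most 0.381. The skeletal myosins Myh1, Myh2 and Myh4 had at most 2 counts in any library. Con_F 4 stood apart from the other female libraries: counts of 4 Y-linked genes reached 1.01% of the male mean there, against 0.0112% to 0.112% in the other 6. Several results are therefore given with and without this library.

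**Figure D1:**
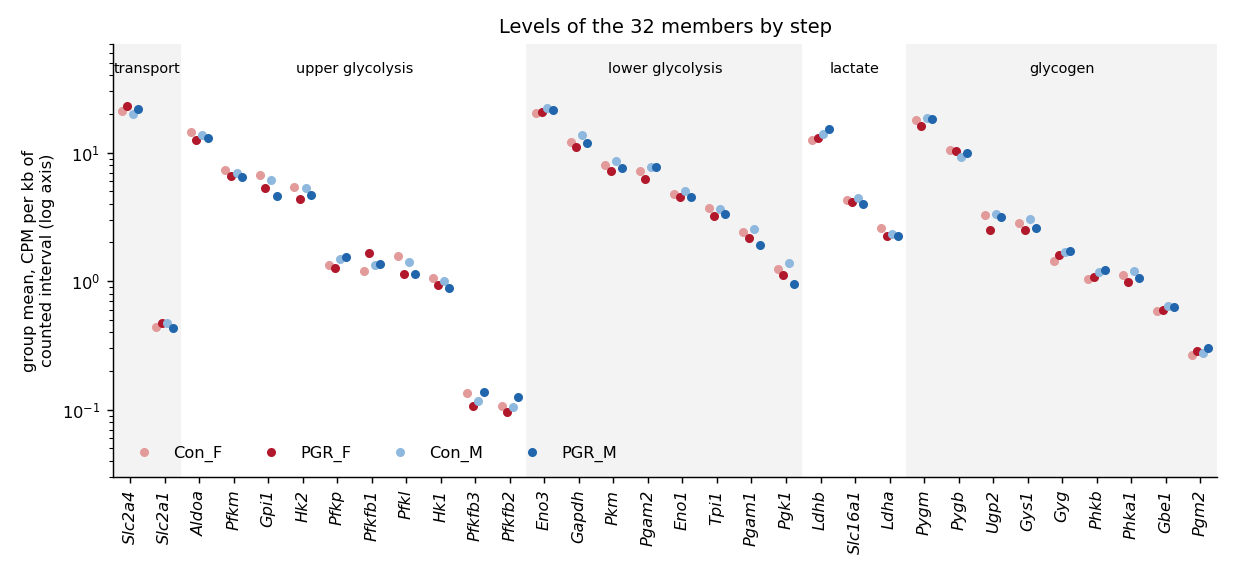
Mean level of each of the 32 genes in the 4 groups, in CPM per kb of counted interval on a log axis, ordered by level within each step. Slc2a4, Eno3 and Pygm lie near 20 and Pfkfb2 and Pfkfb3 near 0.1, and the 4 groups of a gene lie close together on this axis.

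Most of the highest genes of the set were isoforms typical of striated muscle. Levels between genes were compared as CPM per kb of the counted interval, which holds introns as well as exons and ran from 2.094 kb for Pgam2 to 255.768 kb for Gbe1. On that scale the highest gene was Slc2a4, the insulin-responsive glucose carrier GLUT4 (21.5 CPM per kb over all libraries), followed by Eno3, the muscle enolase (21.2), and Pygm, muscle glycogen phosphorylase (17.8). Ldhb, the lactate dehydrogenase subunit typical of heart, stood at 13.6, Aldoa, the muscle aldolase, at 13.5 and Gapdh, the glyceraldehyde phosphate dehydrogenase, at 12.2. The lowest was Pfkfb2, one of the enzymes that set the level of the sugar bisphosphate that activates phosphofructokinase, at 0.108. Of the genes tested, 99.4% lay below Slc2a4 and 26.5% below Pfkfb2 on this scale. The 32 genes together made up 3207 to 3831 CPM, with PGR_F 1 lowest and Con_F 1 highest.

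The muscle-type or heart-type isoform held the larger share of all 7 paralogous families on counts per kb. Slc2a4 took 97.9% of the 2 carriers, with a range of 97.6% to 98.3% over the 13 libraries. Hk2, the insulin-responsive hexokinase, took 83.5% of the pair with Hk1 (range 80.4% to 87.6%), and Pfkm, the muscle phosphofructokinase, 71.5% of the 3 subunits (68.9% to 73.6%). Pgam2, the muscle phosphoglycerate mutase, took 75.6% of the pair with Pgam1 (69.2% to 81.7%), Eno3 81.7% of the pair with Eno1 (79.3% to 84.1%), and Ldhb 84.9% of the pair with Ldha (79.6% to 87.9%). Pygm took 64.0% of the pair with the brain-type phosphorylase Pygb (59.4% to 71.8%). The shares depend on the division by length: without it Pgam2 stood at 49.4% and Pygm at 35.8%.

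The SDs within groups were 0.1 to 5.1 percentage points. In males the share of Ldhb was 85.7% ± 2.82 (SD, n = 3) in Con_M and 87.0% ± 0.744 (n = 3) in PGR_M, and in females 82.4% ± 2.74 (n = 4) and 85.3% ± 0.85 (n = 3). Pfkm took 71.6% ± 0.335 of the phosphofructokinase subunits in Con_F (n = 4) and 73.1% ± 0.616 in PGR_F (n = 3), and 72.4% was the lowest PGR_F value against 71.9% as the highest in Con_F. Its male groups overlapped, at 70.6% ± 1.70 in Con_M (n = 3, 68.9% to 72.3%) and 70.8% ± 0.772 in PGR_M (n = 3, 70.1% to 71.6%). The shares are given as values and were not tested.

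**Figure D2:**
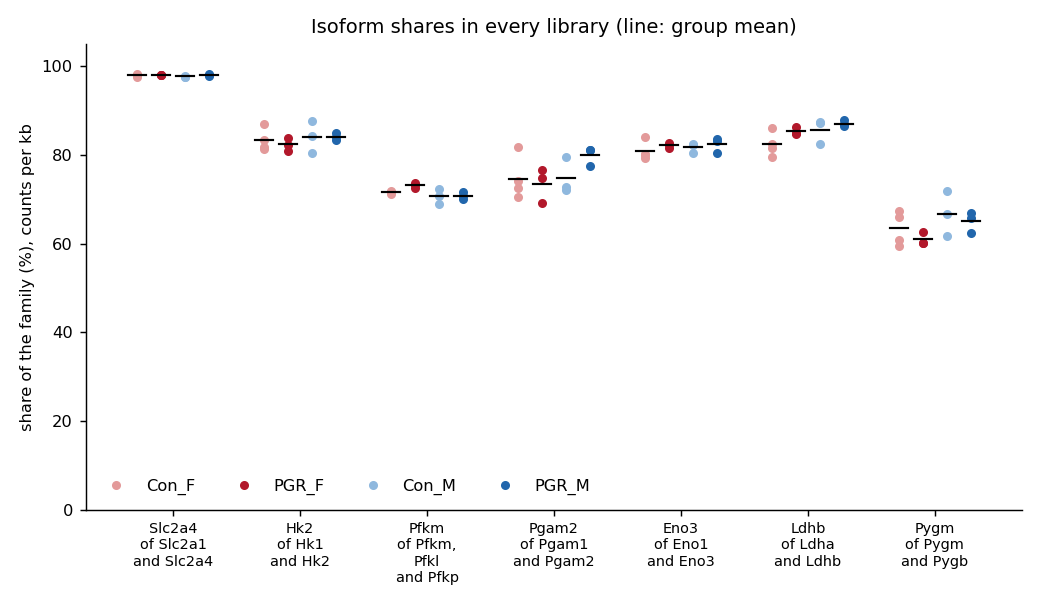
Share of the named isoform in its family in every library, in percent of counts per kb, with a line at each group mean. Points are libraries, coloured by group, and the shares run from about 60% for Pygm to 97.9% for Slc2a4 with little spacing between groups.

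The main question was what the PGR vector did to these genes. Averaged over the sexes, 24 of the 32 genes had a log2 fold change (PGR vector over control vector) below 0, with a median of -0.11, where 49% of all genes lay below 0 and their median was 0.00. No gene of the set passed edgeR's quasi-likelihood test at an adjusted p under 0.05 in the averaged comparison, in which 0.0062% of all genes passed. At an unadjusted p under 0.05, 8 of 32 were lower and 0 higher, where 7.45% of all genes were lower and 7.37% higher. These 8 were Gpi1, Pfkl, Hk2, Pfkm, Pgk1, Pgam1, Pkm and Gys1, and their sizes were modest, from -0.39 for Pfkl to -0.13 for Pfkm. Without PGR_F 2 the count was 14 lower and 0 higher, the added genes being Gapdh, Eno1, Tpi1, Hk1, Aldoa and Ldha. Without PGR_F 1 it was 6 lower and 0 higher, with Pkm and Pfkm gone. Without Con_F 4 it was 7 lower and 0 higher, with Pkm gone, and 20 of 32 genes lay below 0 (median -0.13). Leaving out Con_M 1 or PGR_M 1 gave 8 lower and 1 higher, the higher gene being Pfkfb1 and Gyg in turn. The share of all genes at this p is not given for these fits. None of the 32 had all 6 PGR-vector libraries under all 7 control libraries, as 0.36% of all genes did. By step, 8 of 10 upper genes, 8 of 8 lower genes, 2 of 3 lactate genes, 5 of 9 glycogen genes and 1 of 2 carriers lay below 0. The medians were -0.14, -0.15, -0.11, 0.00 and 0.05 in that order.

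**Figure D3:**
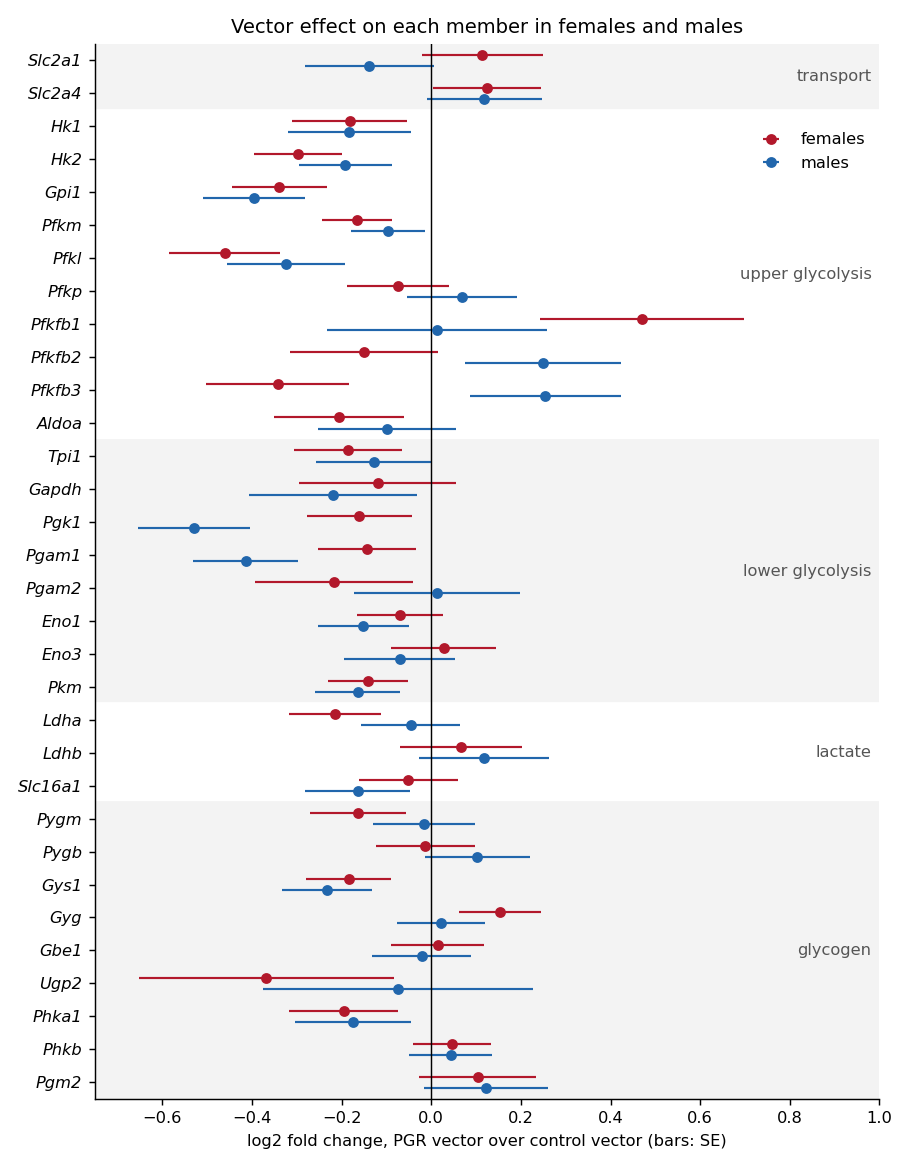
Log2 fold change of each gene, PGR vector over control vector, in females (red) and males (blue), with bars of 1 standard error and shading by step. Pfkl, Gpi1 and Hk2 lie left of 0 in both sexes, Pgk1 and Pgam1 lie further left in males, and Pfkfb3 lies on opposite sides of 0.

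In bulk RNA fewer cells of a type and less RNA per cell cannot be told apart. Cardiomyocyte markers also lay mostly below 0, with 7 of 8 in females (median -0.17), 5 of 8 in males (-0.08) and 6 of 8 averaged (-0.13), with 0 called. All 9 endothelial markers lay below 0 in females (median -0.25) and 0 of 9 in males (0.17). Of the 4 atrial markers 2 lay below 0 in females (median -0.03), 1 in males (0.80) and 0 averaged (0.37), with summed levels of 9.52 to 19.3 CPM in the control libraries and 9.22 to 21.8 CPM in the PGR-vector libraries. Of the 5 macrophage markers tested 2 lay below 0 in females (median 0.14), 1 in males (0.33) and 0 averaged (0.16). Of the 8 fibroblast markers 5 lay below 0 in females (median -0.07), 1 in males (0.16) and 3 averaged (0.05). Of the 6 smooth muscle and pericyte markers 4 did in females (-0.04), 2 in males (0.14) and 2 averaged (0.03). The creatine kinase Ckm, which heart also expresses, dominates the 3 skeletal muscle markers tested. Of these 3 lay below 0 in females (median -0.30), 2 in males (-0.55) and 2 averaged (-0.42). Summed levels of the skeletal muscle markers were 103 to 165 CPM in the control libraries and 78.3 to 129 CPM in the PGR-vector libraries. None of these markers was called, and their part in the result was not tested.

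Neither carrier passed the test or had an unadjusted p under 0.05. Slc2a4 (ENSMUSG00000018566, GRCm38 chromosome 11, 69942539 to 69948188, minus strand) had 131, 109, 99.7 and 139.6 CPM in Con_F 1 to 4 and 111, 144 and 137 CPM in PGR_F 1, 2 and 4. Its male values were 112, 109 and 118 CPM in Con_M and 109, 134 and 126 CPM in PGR_M. The groups overlapped in both sexes, and the averaged log2 fold change was 0.12 (SE 0.09, edgeR adjusted p = 0.545). Slc2a1, the basal carrier GLUT1, was at 0.11 (SE 0.13) in females and -0.14 (SE 0.14) in males. In Con_F it stood at 12.8 ± 1.13 CPM (SD, n = 4), compared with 13.8 ± 2.00 in PGR_F (n = 3).

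Among the upper steps, Pfkl, Gpi1 and Hk2 had the lowest averaged fold changes. Hexokinase traps glucose in the cell. Hk2 (ENSMUSG00000000628, chromosome 6, 82725025 to 82774454, minus strand) had 299.8, 252, 258 and 249 CPM in Con_F 1 to 4 and 211, 232 and 204 CPM in PGR_F 1, 2 and 4. The 3 PGR_F libraries all lay under the 4 Con_F libraries, which 4.07% of all genes did. The males showed 291, 255 and 242 CPM in Con_M against 203, 243 and 245 CPM in PGR_M, and the groups overlapped. The averaged log2 fold change was -0.24 (SE 0.07, edgeR adjusted p = 0.154). Hk1, its more widely expressed paralog, was at -0.18 (SE 0.09).

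Gpi1 encodes the isomerase that turns the glucose phosphate made by hexokinase into fructose phosphate. It lies on chromosome 7 (ENSMUSG00000036427, GRCm38, 34201330 to 34230336, minus strand). It had 219, 191, 207 and 158 CPM in Con_F 1 to 4 and 141, 163 and 156 CPM in PGR_F 1, 2 and 4. Male libraries had 191, 174 and 165 CPM in Con_M against 147, 123 and 133 CPM in PGR_M. The male groups did not overlap, while in females only Con_F 4 reached into the range of the PGR-vector libraries. Its log2 fold change was -0.34 (SE 0.11) in females, -0.40 (SE 0.11) in males and -0.37 (SE 0.08, 0.775-fold, edgeR adjusted p = 0.0882) averaged. By p it ranked 48 among the 16125 genes.

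Pfkl, the liver-type subunit of phosphofructokinase, had the largest averaged change of the set. It lies on chromosome 10 (ENSMUSG00000020277, GRCm38, 77986947 to 78010083, minus strand). It had 45.8, 35.3, 36.0 and 29.1 CPM in Con_F 1 to 4 and 24.1, 29.3 and 26.2 CPM in PGR_F 1, 2 and 4. In males it had 30.7, 34.1 and 33.5 CPM in Con_M against 28.7, 25.1 and 24.6 CPM in PGR_M. Again the male groups were apart, and in females Con_F 4 lay just under the highest PGR_F library. The log2 fold change was -0.46 (SE 0.12) in females, -0.32 (SE 0.13) in males and -0.39 (SE 0.09, edgeR adjusted p = 0.0922) averaged. The muscle subunit Pfkm, whose level per kb was the highest of the 3, was at -0.13 (SE 0.06, edgeR adjusted p = 0.299), and the platelet-type subunit Pfkp was at 0.00 (SE 0.08).

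Both genes passed once Con_F 4 was left out, a fit in which 338 of all 16189 genes tested passed, against 1 of 16125 with all libraries. Without it the averaged log2 fold change was -0.41 for Gpi1 (edgeR adjusted p = 0.0199) and -0.44 for Pfkl (0.0239), and all 6 PGR-vector libraries lay under all 6 remaining control libraries for both, which 0.98% of all genes did. No other of the 32 genes did so. Over all alternatives the adjusted p ranged from 0.0035 to 0.265 for Gpi1 and from 0.00949 to 0.268 for Pfkl.

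The promoters of the genes with the smallest p in the averaged comparison are shown because a transcription factor was delivered. Each is the 250 bases before the RefSeq start (GRCm38.p6), written 5′ to 3′ on the gene's strand, and capitals mark matches to the motifs searched. Both strands were searched for 4 motifs. ACGTG is the core of the hypoxia response element. The E-box CACGTG holds these letters too, so the matches overlap. Glucocorticoid and progesterone response elements are built of repeats of TGTTCT. The GC box, GGGCGG, is known to bind Sp1. The window of Gpi1 is chr7:34230337-34230586 (minus strand) and that of Pfkl is chr10:78009808-78010057 (minus strand). The Gpi1 window held 2 GC boxes, and that of Pfkl held none of the 4 motifs.
Gpi1: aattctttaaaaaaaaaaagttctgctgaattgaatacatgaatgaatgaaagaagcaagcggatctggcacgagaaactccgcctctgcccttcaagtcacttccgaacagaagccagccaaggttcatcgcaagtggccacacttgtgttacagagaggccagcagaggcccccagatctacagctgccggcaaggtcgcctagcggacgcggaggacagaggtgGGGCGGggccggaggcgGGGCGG
Pfkl: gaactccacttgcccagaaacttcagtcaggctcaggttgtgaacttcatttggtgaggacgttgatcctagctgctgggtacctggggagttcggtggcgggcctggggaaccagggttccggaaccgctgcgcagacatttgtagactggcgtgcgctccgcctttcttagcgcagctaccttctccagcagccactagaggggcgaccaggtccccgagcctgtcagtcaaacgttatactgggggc

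The bifunctional regulators that make and break the activator of phosphofructokinase had fold changes of differing sign. Pfkfb3 was at -0.34 (SE 0.16) in females and 0.25 (SE 0.17) in males, and without Con_F 4, its highest Con_F library, the female value was -0.21. It had 8.78, 9.26, 12.5 and 14.3 CPM in Con_F 1 to 4 and 8.14, 10.3 and 8.03 CPM in PGR_F 1, 2 and 4, with overlap. Its male values were 10.1, 8.15 and 10.5 CPM in Con_M against 12.02, 11.3 and 10.98 CPM in PGR_M, with no overlap. The female minus male difference was -0.60 (SE 0.23, edgeR adjusted p = 1.00) with all libraries and -0.46 without Con_F 4. Pfkfb2 also lay wholly above its controls in males, at 4.61, 3.50 and 4.45 CPM against 5.11, 5.18 and 4.70 CPM, a log2 fold change of 0.25 (SE 0.17). Pfkfb1 lay wholly above in females, at 72.3, 69.5, 50.1 and 73.9 CPM against 90.6, 101 and 84.4 CPM, with a log2 fold change of 0.47 (SE 0.23) there and 0.01 (SE 0.25) in males. Among all genes 4.17% lay wholly above their controls in females and 7.2% in males, and Pfkfb1 and Pfkfb2 were singled out after their values were seen. The interval of Pfkfb2 shares 66.4% of its length with a predicted gene on the same strand, so its counts are uncertain.

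Aldoa, which splits the sugar bisphosphate, closes the upper part. It had 94.0, 72.0, 70.1 and 83.2 CPM in Con_F 1 to 4 and 51.6, 85.7 and 70.2 CPM in PGR_F 1, 2 and 4. The males showed 81.3, 70.2 and 76.6 CPM in Con_M against 65.95, 69.7 and 77.6 CPM in PGR_M. The groups overlapped in both sexes and the averaged log2 fold change was -0.15 (SE 0.11). The symbol has a second identifier in the table, with 9 to 41 counts per library, which was read apart. Fam57b overlaps 55.9% of Aldoa on the opposite strand, and while the libraries were directional, the protocols do not state the strand setting of the counting.

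In lower glycolysis, all 8 genes lay below 0 averaged over the sexes, from -0.34 for Pgk1 to -0.02 for Eno3. Pgk1, the phosphoglycerate kinase that makes the first ATP of the pathway, lies on the X chromosome (ENSMUSG00000062070, GRCm38, 106187100 to 106203699, plus strand). It had 22.1, 21.8, 21.8 and 16.5 CPM in Con_F 1 to 4 and 17.3, 21.2 and 16.7 CPM in PGR_F 1, 2 and 4. Male libraries had 24.0, 24.7 and 20.2 CPM in Con_M against 16.7, 14.8 and 16.3 CPM in PGR_M. The male groups did not overlap, and in females Con_F 4 was the lowest of all 7 libraries. The log2 fold change was -0.53 (SE 0.13, edgeR adjusted p = 0.463) in males, -0.16 (SE 0.12) in females and -0.34 (SE 0.09, adjusted p = 0.112) averaged.

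Pgam1 encodes the widely expressed phosphoglycerate mutase. It lies on chromosome 19 (ENSMUSG00000011752, GRCm38, 41911923 to 41918660, plus strand). It had 17.1, 17.2, 16.9 and 13.8 CPM in Con_F 1 to 4 and 12.9, 16.8 and 14.4 CPM in PGR_F 1, 2 and 4. In males it had 17.9, 18.6 and 15.4 CPM in Con_M against 13.7, 12.6 and 12.7 CPM in PGR_M. The male groups were apart and the female groups overlapped through Con_F 4. The log2 fold change was -0.41 (SE 0.12, edgeR adjusted p = 0.581) in males, -0.14 (SE 0.11) in females and -0.28 (SE 0.08, adjusted p = 0.146) averaged. Without Con_F 4 the averaged change was -0.39 for Pgk1 (edgeR adjusted p = 0.0263) and -0.31 for Pgam1 (0.0452), in the fit where 338 of all 16189 genes passed. The 3 PGR_F libraries then lay under the 3 remaining Con_F libraries for both genes, as they did for Hk2, Gpi1 and Pfkl (8.97% of all genes). Over all alternatives the adjusted p ranged from 0.0205 to 0.307 for Pgk1 and from 0.0452 to 0.347 for Pgam1. Both genes have near-identical copies elsewhere in the genome, as have Gapdh, Aldoa, Eno1, Tpi1 and Ldha, so reads shared between copies make these counts uncertain.

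The windows before Pgk1 (chrX:106186850-106187099, plus strand) and Pgam1 (chr19:41911621-41911870, plus strand) held 2 and 1 matches to ACGTG, and that of Pgk1 also held 1 GC box.
Pgk1: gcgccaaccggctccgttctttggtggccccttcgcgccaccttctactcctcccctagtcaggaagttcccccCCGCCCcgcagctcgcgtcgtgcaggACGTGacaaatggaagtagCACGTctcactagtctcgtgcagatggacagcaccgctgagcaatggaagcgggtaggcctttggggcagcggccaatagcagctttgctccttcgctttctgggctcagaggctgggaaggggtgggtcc
Pgam1: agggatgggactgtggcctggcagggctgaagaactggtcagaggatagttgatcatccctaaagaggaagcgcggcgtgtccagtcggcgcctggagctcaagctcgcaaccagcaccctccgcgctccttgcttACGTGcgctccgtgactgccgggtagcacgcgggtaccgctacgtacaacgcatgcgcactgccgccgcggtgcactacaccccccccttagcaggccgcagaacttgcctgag

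Of the 32 genes 31 had a RefSeq window. ACGTG was found in 15 of the 31 (48.4%), against 18.5% of all 27025 genes with a window of that length. CACGTG was found in 5 (16.1% against 6.86%), GGGCGG in 20 (64.5% against 35.4%) and TGTTCT, the progesterone response unit, in 7 (22.6% against 18.2%). None of the 4 promoters printed held TGTTCT in these 250 bases. The 27025 genes were not limited to those tested here, and the part of this or of base composition in the shares was not tested. A match is a description of letters and not a measured binding site.

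The muscle paralogs of the lower steps lay nearer to 0 averaged over the sexes, at -0.10 for Pgam2 and -0.02 for Eno3, than Pgam1 (-0.28) and Eno1 (-0.11), and these differences were not tested. Pgam2 was at -0.22 (SE 0.18) in females and 0.01 (SE 0.19) in males. Pgam1 was at -0.14 in females and -0.41 in males, so in females it was Pgam1 that lay nearer to 0. Eno3 had 95.9, 98.2, 110.2 and 131 CPM in Con_F 1 to 4 and 96.6, 127 and 109 CPM in PGR_F 1, 2 and 4. Its male values were 117, 113 and 128 CPM in Con_M against 121, 100.2 and 119 CPM in PGR_M. Its groups overlapped in both sexes, and the averaged log2 fold change was -0.02 (SE 0.09). Eno1, the widely expressed enolase, was at -0.07 (SE 0.10) in females and -0.15 (SE 0.10) in males, where its 3 PGR_M libraries lay under the Con_M libraries. Pkm, the pyruvate kinase that ends the pathway, was at -0.15 averaged (SE 0.07, edgeR adjusted p = 0.295). Gapdh was at -0.17 (SE 0.13) and the triose phosphate isomerase Tpi1 at -0.16 (SE 0.09).

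**Figure D4:**
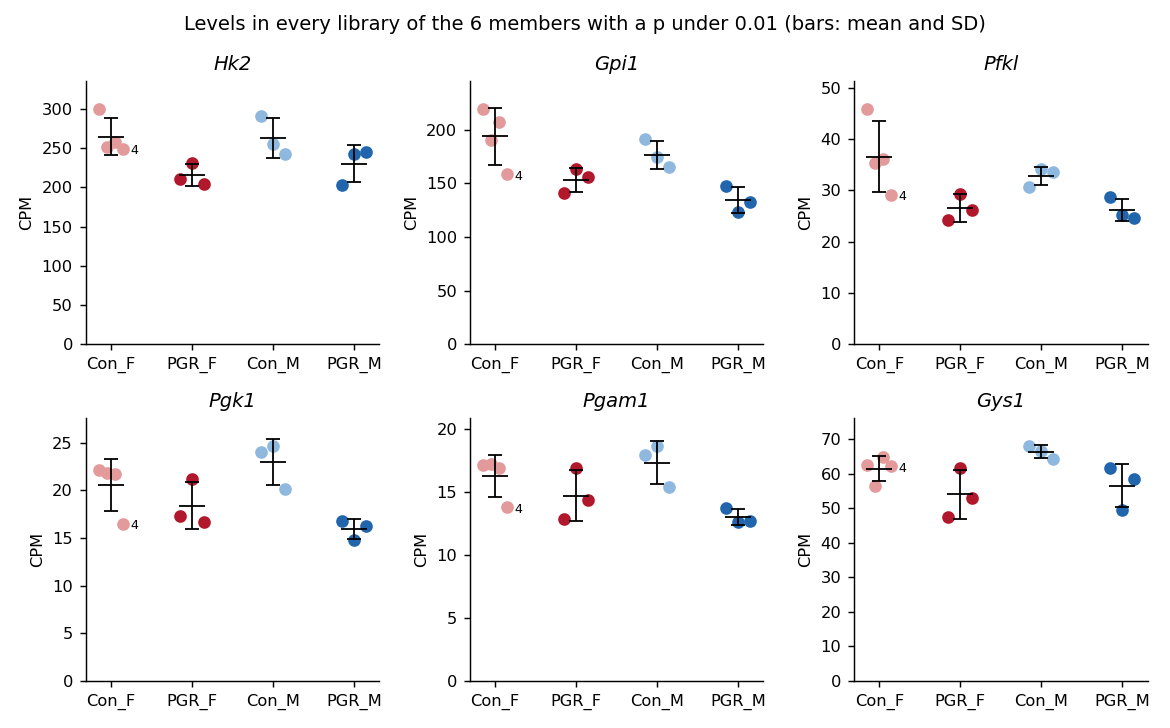
CPM in every library of the 6 genes with an unadjusted p under 0.01 in at least 1 comparison, with the group mean and SD in black. The digit 4 marks Con_F 4, which is the lowest Con_F library for Hk2, Gpi1, Pfkl, Pgk1 and Pgam1 and lies among the others for Gys1.

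None of the 3 lactate genes had an unadjusted p under 0.05 with edgeR. Ldhb had 186, 209, 205 and 282 CPM in Con_F 1 to 4 and 200.1, 250.01 and 243 CPM in PGR_F 1, 2 and 4. The males showed 221, 261 and 260.2 CPM in Con_M against 233, 268 and 304 CPM in PGR_M. The groups overlapped, and the averaged log2 fold change was 0.09 (SE 0.10). Ldha, the subunit typical of skeletal muscle, was at -0.13 (SE 0.08), and Slc16a1, the lactate and pyruvate carrier MCT1, at -0.11 (SE 0.08), with edgeR adjusted p of 0.437 and 0.564.

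In the averaged comparison with all libraries, the synthase was the glycogen gene with an unadjusted p under 0.05 in edgeR. Gys1, muscle glycogen synthase (ENSMUSG00000003865, chromosome 7, 45434844 to 45456619, plus strand), had 62.5, 56.3, 64.8 and 62.2 CPM in Con_F 1 to 4 and 47.5, 61.7 and 52.9 CPM in PGR_F 1, 2 and 4. Male libraries had 68.0, 66.7 and 64.3 CPM in Con_M against 61.5, 49.6 and 58.3 CPM in PGR_M. The male groups were apart and the female groups overlapped. The averaged log2 fold change was -0.21 (SE 0.07, edgeR adjusted p = 0.198). Pygm, which releases glucose units from glycogen, had 249, 219, 256 and 289 CPM in Con_F 1 to 4 and 204, 235 and 239 CPM in PGR_F 1, 2 and 4. In males it had 229.7, 255 and 298 CPM in Con_M against 274, 246 and 254 CPM in PGR_M. The groups overlapped, and the averaged log2 fold change was -0.09 (SE 0.08). The 7 other genes lay between -0.22 (SE 0.21) for Ugp2, which makes the activated glucose that the synthase uses, and 0.11 (SE 0.09) for Pgm2, a phosphoglucomutase. Between them were the brain-type phosphorylase Pygb (0.04), the primer protein gene Gyg (0.09), the branching enzyme Gbe1 (0.00) and the phosphorylase kinase subunits Phka1 (-0.19) and Phkb (0.04). Phka1 was lower at an unadjusted p under 0.05 with limma-voom, with no filter, and without Con_F 3, Con_M 3 or PGR_M 3. Without PGR_M 3 it had the smallest edgeR adjusted p of the set, averaged (0.134) and in males (0.613). Phka1 had 161, 165 and 144 CPM in Con_M 1 to 3 and 123, 116 and 177 CPM in PGR_M 1 to 3.

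In females alone, 23 of 32 genes lay below 0 (49.3% of all genes did), with a median of -0.15. By step these were 9 of 10 upper, 7 of 8 lower, 2 of 3 lactate, 5 of 9 glycogen and 0 of 2 carrier genes. With edgeR 0 of 32 passed (0% of all genes), and at an unadjusted p under 0.05 there were 0 higher (5.8% of all genes) and 4 lower (5.15% of all genes): Pfkl, Gpi1, Hk2 and Pfkfb3, with adjusted p of 0.302, 0.325, 0.33 and 0.451. All 4 belong to the upper steps. Without Con_F 4 there were also 4 lower and 0 higher, but Pgk1, a lower-glycolysis gene, took the place of Pfkfb3. In that fit 22 of 32 genes lay below 0, with a median of -0.10. The 0 higher depends on the processing: Pfkfb1 was higher at that p with DESeq2, the replicate block and only the groups compared. Total count scaling gave 3 lower and 2 higher, the latter Gyg and Pfkfb1. Leaving out Con_M 1 or PGR_M 1 made Pfkfb1 higher at that p, and leaving out PGR_F 4 did so for Gyg. Without PGR_F 2 there were 14 lower and 0 higher in females, lower-glycolysis and lactate genes such as Gapdh, Tpi1 and Ldha among them. Without PGR_F 1 there were 3 lower and 0 higher, namely Pfkl, Hk2 and Gpi1. The share of all genes at this p is not given for any of these alternatives. In males 21 of 32 lay below 0 (49.9% of all genes), with a median of -0.09. These were 6 of 10 upper, 7 of 8 lower, 2 of 3 lactate, 5 of 9 glycogen and 1 of 2 carrier genes. With edgeR 0 passed (0% of all genes), and at an unadjusted p under 0.05 there were 0 higher (3.53% of all genes) and 5 lower (3.94% of all genes): Pgk1, Pgam1, Gpi1, Pfkl and Gys1, with adjusted p of 0.463 to 0.632. Without Con_M 2, Con_M 3 or PGR_M 2 there were 3 lower, Pgk1, Pgam1 and Gpi1 each time. Without PGR_M 3 there were 4 lower, these and Phka1. With only the groups compared there were 6 lower and 1 higher, the latter Pfkfb3. Shares of all genes at this p are not given for these male fits either. In males 7 genes lay wholly under their controls, as 8.48% of all genes did: Gpi1, Pfkm, Pfkl, Pgk1, Pgam1, Eno1 and Gys1. Gpi1 and Pfkl were the 2 genes in both lists of unadjusted p.

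**Figure D5:**
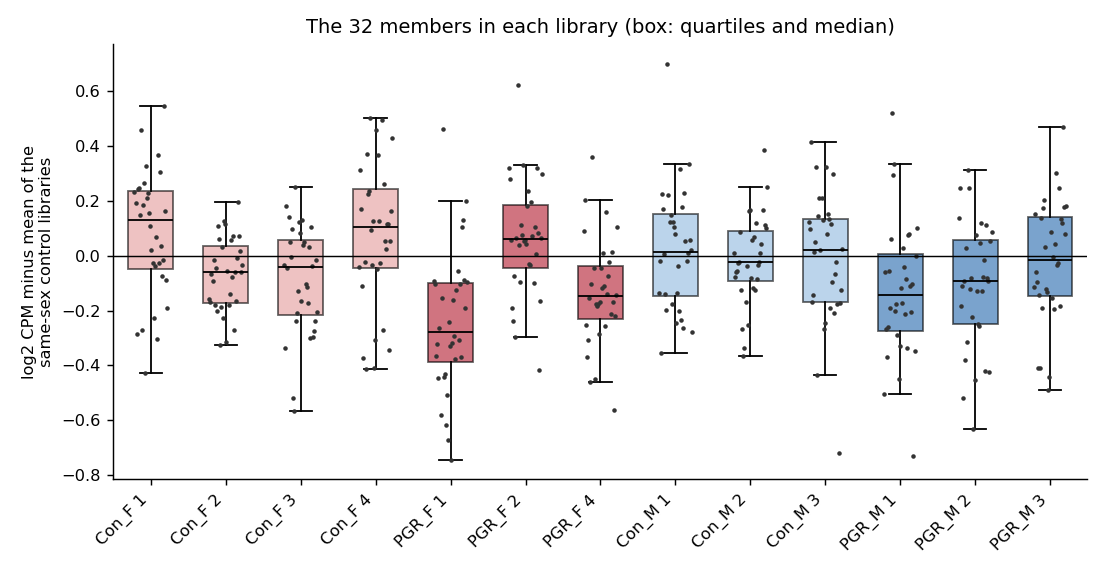
Difference of each gene's log2 CPM from the mean of the control libraries of the same sex, with 32 points and a box of the quartiles per library. A control library was left out of the mean that it was set against. PGR_F 1 has the lowest median at -0.28 and PGR_F 2 lies above 0 at 0.06, while the 3 PGR_M libraries lie between -0.14 and -0.02.

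The PGR-vector libraries differed among themselves. In PGR_F 1, 28 of 32 genes lay below the Con_F mean, with a median of -0.28, and in PGR_F 4 25 did (median -0.15). In PGR_F 2 only 10 did (0.06), and there 5 of 10 upper and 1 of 8 lower genes were below. PGR_F 1 had the smallest total count, 31.8 M, and the part of depth in this was not tested. In males 24, 21 and 17 of 32 lay below the Con_M mean in PGR_M 1 to 3, and 7 of 8 lower-glycolysis genes did in each of the 3. Of all genes, 45.7% to 51.0% lay below in the PGR-vector libraries. Each control library was set against the other controls of its sex. There 12, 22, 20 and 12 of 32 lay below in Con_F 1 to 4, and 14, 18 and 14 in Con_M 1 to 3. Of the 8 lower-glycolysis genes 5, 4 and 2 lay below in Con_M 1 to 3. Without PGR_F 1 the female median went from -0.15 to -0.05 and the averaged one from -0.11 to -0.06, and without PGR_F 2 the female median was -0.21. With scaling by total count the averaged median was -0.07 and 20 of 32 genes lay below 0.

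Whether the vector acted differently in the sexes was asked with the interaction. No gene of the set passed (0% of all genes), and 16 of 32 female minus male differences lay below 0 (49% of all genes), with a median of -0.01 that ranged from -0.11 to 0.06 as single libraries were left out. At an unadjusted p under 0.05 there was 1 gene in each direction, where 1.54% of all genes were lower and 1.72% higher. Beside Pfkfb3 this was Pgk1, at 0.37 (SE 0.17, edgeR adjusted p = 1.00). Without Con_M 2 there were 0 such genes in either direction, and without Con_F 4, Con_M 1, PGR_F 2 or PGR_M 3 Pfkfb3 alone had an unadjusted p under 0.05. Shares of all genes are not given for these fits. The difference for Pgam1 was 0.27 (SE 0.16), and for Gpi1 and Pfkl it was 0.06 (95% interval -0.25 to 0.36) and -0.14 (-0.49 to 0.21).

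Few genes of the set had a small p between the sexes under either vector. Under the control vector 20 of 32 genes were below 0 (female over male; 50% of all genes), with a median of -0.07, and 0 passed edgeR's test, as 0.229% of all genes did. At an unadjusted p under 0.05 only Gyg, which primes glycogen synthesis, was lower in females (5.07% of all genes) and 0 were higher (7.36% of all genes). Without Con_F 4 the count was 4 lower and 2 higher, with Ldhb at the smallest adjusted p of edgeR, 0.23, and without Con_F 1, Con_F 2 or Con_M 2 it was 0 in both directions. Without Con_F 3 it was Pygb alone, higher in females, without Con_M 1 Ldha alone, also higher, and without Con_M 3 Phkb alone, lower. Of the fits that left out a control library, only that without Con_F 4 kept Gyg at this p. Without PGR_F 1 or PGR_F 4 the count was 2 lower, Gyg and Phkb. Shares of all genes at this p are not given for the fits with a library left out. In the fit without Con_F 4, 92 of all 16189 genes tested passed in this comparison, against 37 with all libraries. Gyg stood at 48.1 ± 2.08 CPM in Con_F (SD, n = 4), compared with 55.7 ± 0.982 in Con_M (n = 3). Its log2 fold change was -0.21 (SE 0.09, edgeR adjusted p = 0.362), and all Con_F libraries lay under all Con_M libraries, as 4.94% of all genes did. Of the 9 glycogen genes 8 were below 0. Under the PGR vector 20 of 32 were below 0 (46.9% of all genes), with a median of -0.05, and 0 passed (0.143% of all genes). Pfkp (-0.30, SE 0.12, edgeR adjusted p = 0.614) and Pfkfb3 (-0.38, SE 0.17, edgeR adjusted p = 0.667) were lower in females at an unadjusted p under 0.05, as 3.14% of all genes were, and 0 were higher (4.11% of all genes). Without PGR_F 2 the count was 5 lower and 0 higher, and without PGR_F 4 there were 0. There was 1 lower gene without PGR_F 1 (Phkb), PGR_M 2 (Pfkp) or PGR_M 3 (Pfkfb3). Without PGR_M 1 it was 2 lower and 1 higher, and with the replicate block 4 lower and 1 higher. Total count scaling gave 0 lower and 1 higher, Gpi1. Shares of all genes at this p are not given for these fits. Both Pfkp and Pfkfb3 lay wholly under the male libraries, as did Pfkfb2 and Pygm, against 6.41% of all genes. Without PGR_F 1, 13 of 32 genes were below 0 and the median was 0.05, and with scaling by total count these were 16 and 0.01.

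Other genes of the pathway were read from a list of 66, of which 56 were tested and 0 passed in any of the 6 comparisons. Averaged over the sexes 26 of 56 lay below 0, where 49% of all genes did, with a median of 0.03. At an unadjusted p under 0.05, 5 were lower and 8 higher, beside 7.45% and 7.37% of all genes. The gene with the largest change among those at p under 0.01 was Txnip, an arrestin-like protein known to hold back glucose uptake by drawing carriers into the cell. It had 65.9, 109.6, 70.7 and 130.3 CPM in Con_F 1 to 4 and 153, 145 and 272 CPM in PGR_F 1, 2 and 4. Its male values were 125, 112 and 191 CPM in Con_M against 268, 196 and 257 CPM in PGR_M. In each sex all PGR-vector libraries lay above the controls of that sex, as 4.17% of all genes did in females and 7.2% in males. The log2 fold change was 1.01 (SE 0.30) in females, 0.76 (SE 0.33) in males and 0.89 (SE 0.22, edgeR adjusted p = 0.137) averaged.

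Tigar, a phosphatase that lowers the activator of phosphofructokinase, was at -0.22 averaged (SE 0.06, edgeR adjusted p = 0.113), and Bpgm, which makes the red-cell bisphosphoglycerate, at 0.37 (SE 0.10, adjusted p = 0.141). Of the glycogen genes, the catalytic phosphorylase kinase subunit Phkg1 was at -0.21 (SE 0.06), the phosphatase targeting subunit Ppp1r3b at -0.27 (SE 0.09) and the ubiquitin ligase malin, Nhlrc1, at -0.48 (SE 0.16). Their edgeR adjusted p lay between 0.166 and 0.206. Between the sexes under the control vector, the female over male log2 fold change of Tbc1d1, which restrains carrier traffic, was 0.70 (SE 0.18), with the insulin-pathway kinase Akt2 at 0.29 (SE 0.10), Bpgm at -0.47 (SE 0.14) and the low-level hexokinase Hk3 at 1.05 (SE 0.31), with edgeR adjusted p of 0.16 to 0.255.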

How the data were processed

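RNA from Pcm1-sorted ventricular nuclei was depleted of ribosomal RNA and made into directional libraries, per the labels' protocols. The deposited values are whole-number counts of reads for each gene, with no normalization by the authors. Tools listed in the submitters' processing notes are STAR (2.5.3a) and featureCounts (1.5.0), with GRCm38 and mm10 as builds. The assignment of reads in overlapping genes is not stated there. In every gene the length equalled end minus start plus 1, so counts and lengths cover introns. A smaller deposited table of 15645 genes (mean count of at least 10) was an alternative.

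Counts were fitted with edgeR 4.0.16 in R 4.3.3: filterByExpr, TMM scaling, a quasi-likelihood model of 4 group means over all 13 libraries with a robust prior, and 6 contrasts, each adjusted by Benjamini-Hochberg over the 16125 genes tested. CPM values use TMM-scaled totals, log2 CPM a prior count of 2, and the SE is the log2 fold change over the square root of F. Intervals are 1.96 SE. Alternatives were DESeq2 1.42.0, limma-voom 3.58.1, other size factors, no filter, only the groups compared, a replicate block and leaving out each library. The code was tested on simulated data. The p-values measure the spread between libraries of pooled hearts.

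The genes, steps and lists were chosen with earlier results of these data known. Values in every library are given for genes with an unadjusted p under 0.01 in a comparison and for the highest gene per kb of each step. Genes of the set with a p under 0.05 are named in that comparison, and other pathway genes where p was under 0.01, except for a result that is not reported here. Promoter windows are from RefSeq (GRCm38.p6).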

Additional observations from a re-analysis of the deposited data

Results flagged for a closer look

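In Con_F, the only group of 4 libraries, 3 of the 32 genes had 1 library whose gap to the nearest other, over the group's range, exceeded Dixon's 95% critical value for 4 samples. Chance flags about 1 in 20 groups. Pgk1 had 16.5 CPM in Con_F 4 and 21.8 to 22.1 CPM in the other 3. Pgam1 had 13.8 CPM in Con_F 4 and 16.9 to 17.2 CPM in the other 3. Eno1 had 62.1 CPM in Con_F 3 and 56.4 to 57.2 CPM in the other 3. Con_F 4 is also the female library in which Y-linked counts reached 1.01% of the male mean.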

How the results depend on the processing

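Among the genes of the set named at an unadjusted p under 0.05, none reversed its direction under the alternatives run. With DESeq2, Pgk1, Hk2, Gpi1, Pfkl and Pgam1 passed in the averaged comparison, and with no filter on low counts Pgk1, Gpi1 and Pfkl did. Without Con_F 4, Pgk1, Gpi1, Pfkl and Pgam1 passed. The cause was not tested. Genes called over the whole table, in the order females, males, averaged, interaction, sex under the control vector and sex under the PGR vector, were 0, 0, 1, 0, 37 and 23 in edgeR, with 1765, 1206, 2390, 525, 2003 and 1169 at an unadjusted p under 0.05. They were 81, 27, 339, 1, 224 and 76 with DESeq2 and 25, 12, 146, 1, 131 and 51 with no filter. The averaged count was 5 with total count scaling and 2 with limma-voom. With only the groups of the contrast, 1 gene was called in males, 17 between control sexes and 56 between PGR-vector sexes. Leaving out 1 library at a time gave 0 to 20 genes in females (20 without Con_F 4), 0 to 3 in males (3 without PGR_M 2, 1 without Con_F 4), 1 to 338 averaged (338 without Con_F 4, 34 without PGR_F 4, 4 without PGR_M 2), 14 to 99 between control sexes (99 without Con_M 1, 92 without Con_F 4, and 14 without Con_F 2 or Con_F 3) and 10 to 44 between PGR-vector sexes (44 without Con_F 4, 10 without PGR_F 1). Genes of the set below 0 ranged from 13 to 25 for the sex difference under the PGR vector. Glycogen genes below 0 in males numbered 3 with total count scaling and 3 to 6 with 1 library left out (3 without Con_M 2 or PGR_M 1). Without division by length the isoform shares were 90.1% (Slc2a4), 69.3% (Hk2), 68.2% (Pfkm), 49.4% (Pgam2), 66.2% (Eno3), 87.6% (Ldhb) and 35.8% (Pygm).

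Same-numbered libraries of different groups had correlations of -0.245 to 0.247 (median -0.02, 3 of 16 pairs over 0.1), so the numbers were not taken as pairs. With the replicate block 35 genes were called between PGR-vector sexes in place of 23, and 0 genes of the set passed in any comparison. Every gene of the set had at least 100 counts in each library, and 3 or 4 libraries per group limit the precision.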

Other observations

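The share of the set below 0 is given here by the length of the counted interval. Averaged over the sexes, 6 of 7 genes under 10 kb, 10 of 11 genes of 10 to 30 kb and 8 of 14 genes of 30 kb and over lay below 0. Over all genes tested these shares were 53.1%, 51.9% and 44.4%. The medians of the set were -0.15, -0.13 and 0.00, and those of all genes -0.01, -0.01 and 0.02. Whether length bears on the values of the set was not tested.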
